A study of Mus musculus with 5 samples.

Results

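Mouse miRNAs numbered from miR-1892 to miR-2861 were described in BMDCs, dendritic cells grown from mouse bone marrow. Members were all mouse miRNAs of the array whose number fell in this range. They came to 84 of the 1122 mouse miRNAs, or of 1179 miRNAs with the viral ones. Total RNA was hybridized to 1-colour Agilent arrays, 3 after stimulation with flagellin (100 ng/ml, 24 h) and 2 after 24 h in medium alone. Flagellin is the protein of bacterial flagella, and TLR5 is its receptor at the cell surface. Both groups were C3H/HeJ cells, a strain with a mutation in Tlr4, grown with rmGM-CSF and rmIL-4 and sorted for CD11c with magnetic beads. The paper states that experiments were repeated, and the caption that covers the array plot mentions 3 independent experiments, but neither says whether each array had a culture of its own. The p-values here measure only the spread between these samples, which may be technical. The number of arrays limits the precision.

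miRNAs are numbered in the order in which they were registered, and these late names are mostly known from rodents alone. A mature miRNA guides Argonaute to mRNAs chiefly through its seed, the bases near its 5′ end, and lowers their translation and stability. Few of the members have a known role: miR-2861 was found in mouse osteoblasts, where it targets the deacetylase HDAC5, and miR-1906 maps to the imprinted Meg3 region.

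A miRNA counted as detected on an array when at least 1 of its probes had a signal above 3 times its error, and its total gene signal is the sum over such probes. Of the 84 members, 17 were detected on at least 1 array. Matched by name, a table of RefSeq sequences (GRCm38.p6) gave a mature sequence for 63 of the 84 members and for 13 of the 17 detected. These 13 are shown because the results below turn on them and on their base composition. Capitals mark the seed, bases 2 to 8.

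miR-2861: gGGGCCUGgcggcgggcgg
miR-2137: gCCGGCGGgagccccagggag
miR-1895: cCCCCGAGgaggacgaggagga
miR-1904: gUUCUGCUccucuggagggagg
miR-1897-3p: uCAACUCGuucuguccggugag
miR-1894-3p: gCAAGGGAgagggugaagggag
miR-1892: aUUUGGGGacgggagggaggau
miR-1934-3p: aGGAUGACgguggggcugguga
miR-1906: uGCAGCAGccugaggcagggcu
miR-1896: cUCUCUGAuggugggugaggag
miR-1947-3p: gCACUGAGcuagcucucccucc
miR-1982-5p: uUGGGAGGguccuggggagg
miR-1894-5p: cUCUCCCCuaccaccugccucu

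The other detected members were miR-1949, miR-1897-5p, miR-1927 and miR-1971. All 63 members with a sequence had different seeds, so no 2 of these members share a seed. Shared seeds linked 6 of the 63 to other miRNAs of the array. miR-1961 has the seed of the let-7 family, regulators of differentiation, and was undetected although all 9 let-7 and miR-98 members with that seed were detected. miR-1928, also undetected, shares its seed with miR-221-3p and miR-222-3p, both detected. Of the detected members, miR-1947-3p shares its seed with miR-674-5p and miR-3473d, and miR-2861 with miR-3091-3p, which was undetected.

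Fewer of the members were detected than of the miRNAs numbered under 400, the earliest names. The flagellin arrays detected 14, 16 and 16 of the 84 members and the medium arrays 16 and 16. In percent, this was 16.7, 19.0 and 19.0 with flagellin and 19.0 and 19.0 in medium. Flagellin replicate 1 lacked miR-1982-5p and miR-1971, and flagellin replicate 3 had miR-1894-5p in place of miR-1971. Of the 467 miRNAs numbered under 400, 33.6%, 34.0% and 32.8% were detected with flagellin and 35.1% and 33.4% in medium. The members lay below them on every array, by a mean of −15.2 percentage points ± 1.30 (SD, n = 5 arrays). The two-sided exact sign-flip permutation test over arrays gave p = 0.0625, the smallest that 5 arrays allow. Most miRNAs had the same call on every array: 14 members were detected on all and 67 on none, and 149 and 296 of the miRNAs numbered under 400. The differences were thus bound to share a sign, and this p does not measure the spread between miRNAs. Against all 1038 mouse miRNAs outside the range the mean difference was −8.85 percentage points.

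The low share was not limited to this range of names. On at least 2 arrays, 160 of 467 miRNAs numbered under 400 were detected (34.3%), 83 of 357 numbered 409 to 1843 (23.2%), and 16 of the 84 members (19.0%). Later names gave 30 of 143 from 3057 to 3971 (21.0%) and 18 of 71 from 5046 to 5710 (25.4%). The members had the lowest of the 5 shares, close to the range from 3057 to 3971, which was lower than the members on flagellin replicate 2 (17.5%). The differences between these later ranges were not tested.

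**Figure D1:**
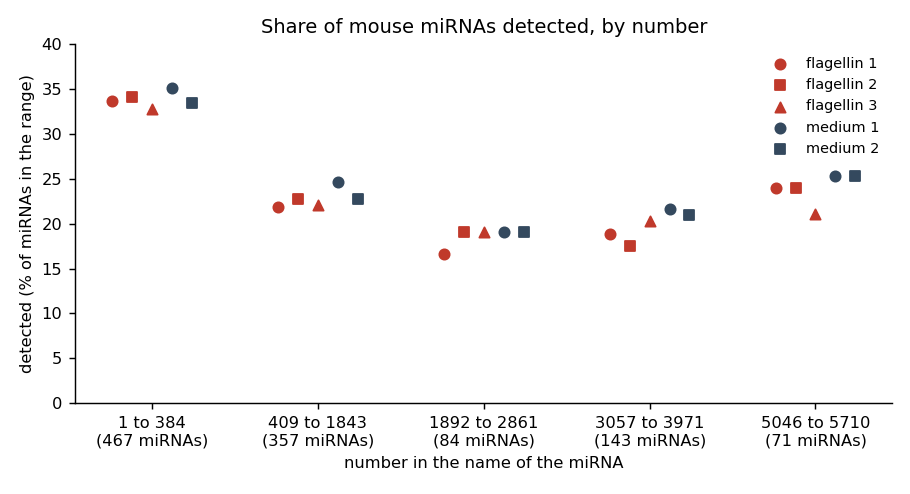
Percent of mouse miRNAs detected on each array (y axis) by the range of the number in their names (x axis), with 1 point per array, flagellin in red and medium in dark blue. The members, miR-1892 to miR-2861, lie between 16.7% and 19.0%, and the miRNAs numbered under 400 between 32.8% and 35.1%.

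Most members were seen either on every array or on none. Of the 84, 14 were detected on all 5 arrays, 1 on 4 (miR-1982-5p), 1 on 3 (miR-1971), 1 on 1 (miR-1894-5p, on flagellin replicate 3) and 67 on none. Among the 67, 57 had no probe whose signal exceeded its own error on any array, and the median of their highest ratios of signal to error was 0.0976. Nearest to the limit came miR-1943-3p, with ratios of 2.28, 2.29 and 2.82 with flagellin and 2.58 and 2.60 in medium. All 5 of its values lay close under the limit of 3, and the groups overlapped. The next were miR-1930-3p, at 2.33 on medium replicate 1, and miR-1967, at 1.93 on the same array. These 3 members were below the limit, which does not show that they were absent from the cells.

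Total gene signals, in intensity units, depend on the probes of each miRNA and are not amounts, so signals are compared between arrays and not between miRNAs. Together the members held 0.608%, 0.634% and 0.697% of all mouse signal with flagellin and 0.672% and 0.721% in medium. Most of their summed signal came from miR-1949, miR-2861 and miR-2137 on every array. On flagellin replicate 1 these gave 443, 294 and 257 of 1408, so the share mainly follows these miRNAs.

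**Figure D2:**
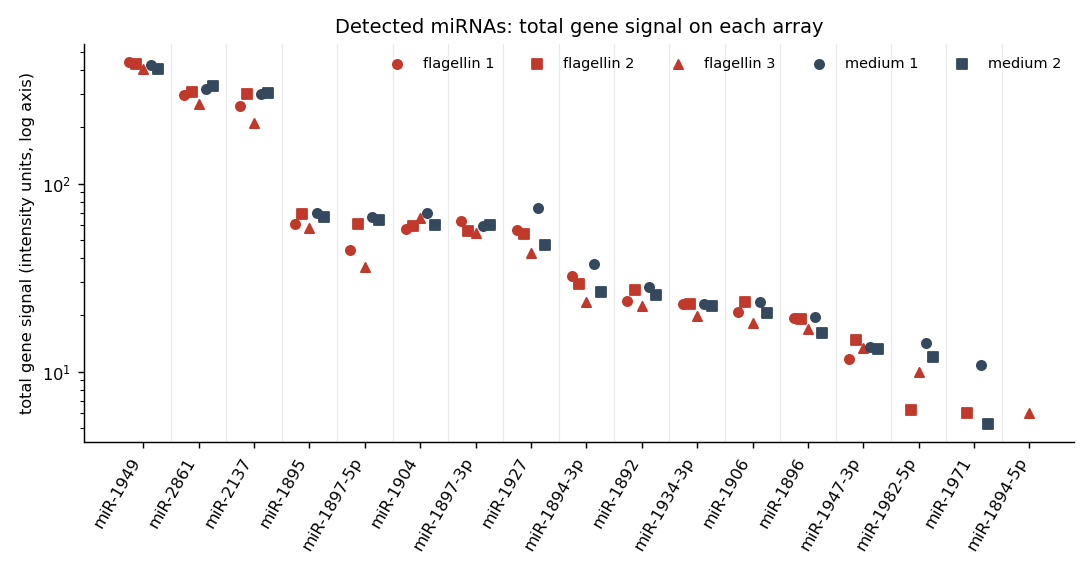
Total gene signal in intensity units (log y axis) of the 17 detected members (x axis), with 1 point per array on which each was detected, flagellin in red and medium in dark blue. Signals ran from 5.24 for miR-1971 on medium replicate 2 to 443 for miR-1949 on flagellin replicate 1.

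miR-1949, whose gene lies within the small nucleolar RNA host gene Snhg4, had signals of 443, 431 and 405 with flagellin and 425 and 405 in medium. Flagellin replicate 1 was its highest array, and the groups overlapped. miR-2861 had 294, 308 and 264 with flagellin and 318 and 329 in medium. Its probes, of 9 and 10 nt and made of G and C alone, were the shortest of any detected member. How specific they are was not tested. All 3 flagellin signals were below both medium signals, but after scaling flagellin replicate 3 lay above medium replicate 1. miR-2137, within Zfp185, had 257, 300 and 211 with flagellin and 300 and 303 in medium. Flagellin replicates 1 and 3 were low, and flagellin replicate 2 lay just above medium replicate 1.

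The mature sequence of miR-2861 lies at chr2:32712819-32712837, and its gene lies between Cdk9, a kinase of transcription elongation, and Mir3960. Its neighbour miR-3960 was detected on all 5 arrays, with signals of 7519, 8448 and 6452 with flagellin and 9129 and 7886 in medium. The signals overlapped between the groups, at −0.17 in log2 fold change (standard error 0.09) beside −0.14 (standard error 0.13) for miR-2861. It was the only miRNA gene within 10 kb of a detected member's gene.

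miR-1895, within Cxxc4, had signals of 61.2, 69.1 and 58.0 with flagellin and 69.7 and 66.1 in medium. miR-1904, within the phosphodiesterase gene Pde4d, had 57.6, 59.4 and 65.9 with flagellin and 70.1 and 59.9 in medium. miR-1927, within Rabgap1l, had 56.8, 54.1 and 42.6 with flagellin and 74.0 and 47.0 in medium. The groups overlapped for all 3, and medium replicate 1 was the highest array for each. Without that array the log2 fold change of miR-1927 went from −0.19 to 0.04, and without medium replicate 2 it was −0.45.

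miR-1894-3p, within Ppp1r10, had 32.1, 29.4 and 23.4 with flagellin and 37.1 and 26.5 in medium. miR-1892, within Sptssa, had 23.6, 27.1 and 22.2 with flagellin and 28.3 and 25.4 in medium. Medium replicate 1 was again highest for both, and flagellin replicate 3 lowest, with overlap between the groups. miR-1934-3p had 22.8, 22.9 and 19.9 with flagellin and 22.8 and 22.3 in medium, with overlap. Its gene lies between Mpdu1 and Cd68, the latter a marker gene of macrophages and dendritic cells. miR-1906, whose sequence occurs within Meg3 and again on chromosome X, had 20.7, 23.3 and 18.1 with flagellin and 23.5 and 20.5 in medium. The array cannot tell its 2 genes apart, and its groups overlapped.

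miR-1896 had signals of 19.3, 18.9 and 16.8 with flagellin and 19.4 and 16.1 in medium. miR-1947-3p, within Lmln, had 11.7, 14.7 and 13.3 with flagellin and 13.4 and 13.2 in medium. Neither miRNA separated the groups. miR-1982-5p, within the antizyme gene Oaz1, was undetected on flagellin replicate 1 and had 6.23 and 9.91 on the other flagellin arrays and 14.2 and 12.02 with medium. The 6.23 on flagellin replicate 2 came from its longer probe alone and the other values from both probes. The longer probe itself, passing or not, had 5.10, 6.23 and 4.89 with flagellin and 7.20 and 6.41 in medium, and all flagellin signals were the lower ones. On flagellin replicate 1 its signal was 2.99 times its error, just under the limit. miR-1971, beside Tnfsf11, the gene of the osteoclast and dendritic cell cytokine RANKL, had 6.002 on flagellin replicate 2 and 10.8 and 5.24 with medium. Both probes passed on medium replicate 1 and the longer one alone on the other 2 arrays. On that longer probe flagellin replicate 2 was the highest array, with 4.80, 6.002 and 4.80 with flagellin and 5.91 and 5.24 in medium, and the groups overlapped. It was undetected on flagellin replicates 1 and 3, where its best ratios of signal to error were 2.83 and 2.99. miR-1894-5p had 6.05 on flagellin replicate 3 alone. Its best ratios of signal to error were 2.57, 2.23 and 3.65 with flagellin and 2.98 and 2.90 in medium, so both medium arrays were close under the limit.

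The comparison of flagellin with medium asked whether stimulation altered any member. Total gene signals were scaled array by array to the 75th percentile of the 277 miRNAs seen on every array, then floored at 0.0121 and put on the log2 scale. The 307 mouse miRNAs detected on at least 2 arrays were tested, 16 of the 84 members among them. The 5 arrays shared 1 slide, with flagellin replicates 1 and 2 in column 2, replicate 3 of flagellin in column 3 and the medium arrays in column 4. Treatment and array column therefore cannot be told apart.

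The number of detected members and their summed signal differed between the groups by less than the spread between flagellin arrays. The number of members detected was 15.3 ± 1.15 (SD, n = 3) with flagellin and 16 ± 0 (SD, n = 2) in medium. The two-sided exact permutation test gave p = 1, where no split of 3 arrays against 2 gives less than 0.1. All counts but that of flagellin replicate 1 were tied at 16, so every split differs by at least the observed amount. This p therefore cannot decide whether flagellin altered the number detected. The summed scaled signal of the members was 5.01, 5.07 and 6.01 with flagellin and 5.50 and 5.99 in medium. Flagellin replicate 3 was the highest array and the other flagellin arrays the lowest, so the groups overlapped. The log2 ratio of flagellin to medium was −0.10, a fold of 0.931 (two-sided exact permutation test, p = 0.5). With the 75th percentile taken from all mouse miRNAs, the sign turned, to 0.08. In bulk RNA, fewer cells holding a miRNA and less of it per cell cannot be told apart.

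miR-1897-5p was the member that differed most from medium among those detected on every array. It gave signals of 44.6, 60.6 and 36.1 with flagellin and 66.6 and 63.7 in medium. All 3 flagellin arrays were below both medium arrays, before and after scaling, with flagellin replicate 2 nearest to medium. It was 1.39-fold lower with flagellin, with −0.47 as the log2 fold change (standard error 0.14, limma's adjusted p = 0.65). It was lower in all 17 alternative settings, with log2 fold changes from −0.60 to −0.23, adjusted p from 0.224 to 1, and an unadjusted p under 0.05 in 9 of them. Leaving out either medium array ended the unadjusted call, at a log2 fold change of −0.54 without medium replicate 1 and −0.43 when medium replicate 2 was left out.

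The hairpin of miR-1897 lies within Sox2ot, the long noncoding RNA that overlaps the pluripotency gene Sox2. Its other arm, miR-1897-3p (chr3:34638511-34638532), did not show the difference. miR-1897-3p had signals of 63.5, 56.0 and 54.7 with flagellin and 59.5 and 60.2 in medium. These overlapped between the groups, at −0.02 in log2 fold change (standard error 0.16), and the sign of this value turned in 6 of 17 alternative settings. On the log2 scale the ratio of the 5p to the 3p arm was −0.51, 0.11 and −0.60 with flagellin and 0.16 and 0.08 in medium. Flagellin replicates 1 and 3 stood low, while flagellin replicate 2 lay between the medium arrays. The groups overlapped in this ratio, and the difference between the arms was not tested.

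Across the 16 tested members, limma's test gave 0 with an adjusted p under 0.05 and 1 unadjusted, miR-1897-5p. Over all 307 miRNAs the test called 2 adjusted (0.651%) and 18 unadjusted (5.86%), so the members' share, 1 of 16, was near the background. By the methods' t-test, 0 members passed adjusted and 0 unadjusted, beside 2 and 14 (4.56%) of all 307. Adjusted p-values of the members ran from 0.65 to 0.99. The unadjusted count was 0 without medium replicate 1, beside 4 of all 299 tested (1.34%). It was 2 without flagellin replicate 2 (miR-1897-5p and miR-1971), beside 16 of all 305 miRNAs tested (5.25%). It was 2 without medium replicate 2 (miR-1927 and miR-1971), beside 13 of 303 (4.29%). Without flagellin replicate 3 it was 4 (miR-1892, miR-1897-5p, miR-1904 and miR-1982-5p), beside 58 of 307 (18.9%). With flagellin replicate 2 left out, miR-1971 was detected on the medium arrays alone and stood at the floor on the remaining flagellin arrays. Its call there was set by the filter and the floor and does not show a change.

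**Figure D3:**
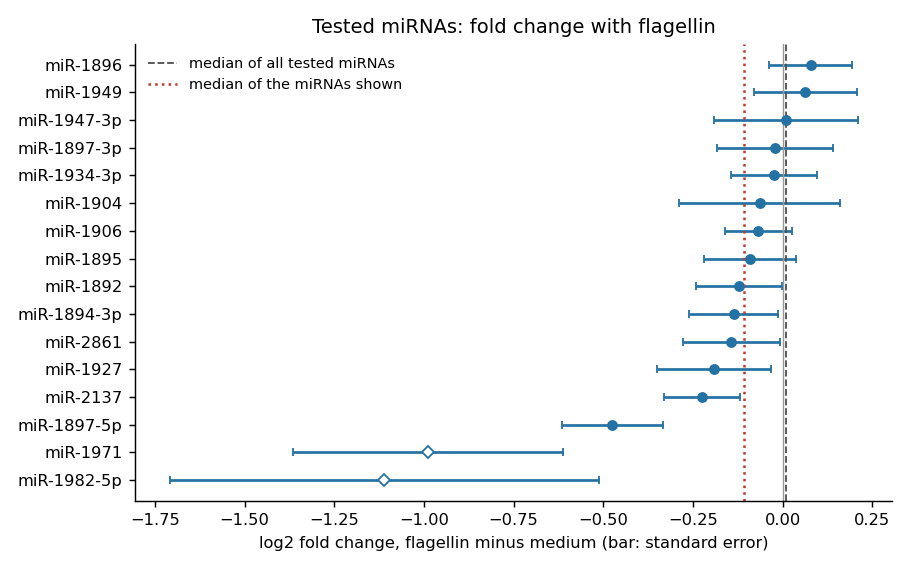
Log2 fold change of the 16 tested members (x axis, flagellin minus medium, bars show limma's standard error), with open diamonds for the members not detected on all 5 arrays. The median of the members is −0.11 (dotted red line) and that of all 307 tested miRNAs is 0.01 (dashed line), and with the 75th percentile of all mouse miRNAs these medians were 0.07 and 0.19.

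More members lay below medium than above it. Of the 16, 13 had a negative log2 fold change and 3 a positive one, beside 47.6% negative over all 307 miRNAs. The median was −0.11 for the members, 0.01 for all 307 and 0.06 for the 160 tested miRNAs numbered under 400. The sign of the median depends on the scaling. With the 75th percentile of all mouse miRNAs, the median of all moved to 0.19 and that of the members to 0.07, with 5 members lower and 11 higher. Relative to the median of all miRNAs the members stood at −0.12 in the scaling used here, −0.11 in that scaling, −0.12 with no scaling and −0.05 with quantile normalization. This difference was −0.05 without flagellin replicate 1 and −0.18 without flagellin replicate 3. It was −0.03 with probe values after normexp and quantile normalization. There an offset of 50 draws log2 fold changes of weak signals toward 0, so this value does not show that the members stood closer to the rest.

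For 4 of the 16 members every scaled and floored flagellin value lay under both medium values, as was so for 8.79% of the 307 miRNAs. They were miR-2137, miR-1897-5p, miR-1982-5p and miR-1971, and before scaling the signals of miR-2137 and miR-1971 overlapped between the groups. Among the flagellin arrays miR-1971 was detected on replicate 2 alone, so it reached the filter of at least 2 arrays only through medium. Its place among the 4 was thus partly set by the filter. Values all above medium were seen for 0 members, beside 11.4% of the 307. miR-2137 had scaled values of 0.914, 1.02 and 1.0003 with flagellin and 1.06 and 1.23 in medium. The log2 fold change was −0.23 (standard error 0.11, limma's adjusted p = 0.859) and kept its sign in all 17 alternative settings, between −0.33 and −0.04. Both miR-1982-5p and miR-1971 rest on arrays where they were undetected. For miR-1982-5p the log2 fold change was −1.11 (standard error 0.60) and for miR-1971 it was −0.99 (standard error 0.38). With the floor divided by 10 these became −2.22 and −3.20. With probe values after normexp and quantile normalization they were −0.06 and −0.01, but that setting added an offset of 50. The offset draws log2 fold changes of weak signals toward 0 by construction, so these 2 values do not measure the change. The sizes for miR-1982-5p and miR-1971 therefore depend on the processing and are not measured folds.

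The remaining members had log2 fold changes between −0.19 (miR-1927) and 0.08 (miR-1896), each smaller in size than 2 standard errors. Those above 0 were miR-1896, miR-1949 and miR-1947-3p. The signs of all 3 turned under other settings: for miR-1896 and miR-1949 without flagellin replicate 3 and with a block for replicate number, and for miR-1947-3p in 5 settings that included no scaling. No medium array shares the number of flagellin replicate 3, so the block leaves that array out of the contrast too. These 2 settings are therefore not separate results. Of the other members in this range, miR-1892, miR-1895, miR-1906 and miR-2861 turned positive with the 75th percentile of all mouse miRNAs alone.

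The flagellin arrays also differed among themselves. In scaled values, flagellin replicate 3 was above flagellin replicates 1 and 2 for 11 of 16 members (68.8%), beside 139 of all 307 miRNAs (45.3%). The median difference was 0.26 on the log2 scale for the members and 0.05 for all 307. Without flagellin replicate 3, all 16 members had a negative log2 fold change, with a median of −0.22 beside −0.05 for all. Flagellin replicate 3 was also the only array in its column, and the part of array column was not tested.

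Most detected members had cytosine-rich probes, a feature that the range of names did not use. Array probes are complementary to the 3′ part of the miRNA, so cytosine in a probe stands for guanine in the miRNA. The 84 members had 176 probes, and values are means over the probes of a miRNA. Members detected on all 5 arrays had a median cytosine content of 55.2% and a median GC content of 66.1%, and the 67 undetected members 31.4% and 54.8%. Their probes were also shorter, with a median of 14 nt against 15.5 nt. Among miRNAs numbered under 400, cytosine content was 27.2% for those detected on all arrays and 24.3% for those detected on none, and GC content 48.3% and 48.7%. There the detected miRNAs had the longer probes, at 17.5 nt against 16.5 nt.

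Of the 28 members with a probe cytosine content of at least 40%, 13 were detected on at least 2 arrays (46.4%), against 3 of the 56 below it (5.36%). The 3 were miR-1949, miR-1897-3p and miR-1947-3p. Among miRNAs numbered under 400, 28 of 57 (49.1%) above and 132 of 410 (32.2%) below that content were detected. For GC content of at least 60% the members gave 13 of 33 (39.4%) against 3 of 51 (5.88%), and the miRNAs numbered under 400 gave 25 of 82 (30.5%) against 135 of 385 (35.1%). The share was higher with higher GC content in the members, and lower in the miRNAs numbered under 400. These contents and limits were chosen with the data known, and no test was made of them.

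**Figure D4:**
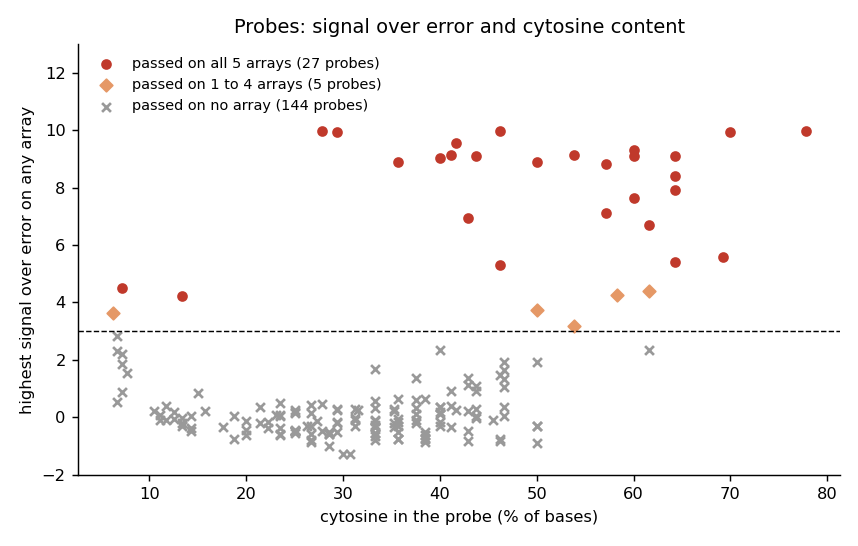
Highest ratio of signal to error on any of the 5 arrays (y axis) against the percent of cytosine in the probe (x axis), with 1 point for each of the 176 probes of the members. The dashed line marks the limit of 3, and 27 probes passed it on all 5 arrays, 5 on 1 to 4 arrays and 144 on none.

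Guanine-rich stretches can be read in the sequences shown, such as those of miR-1894-3p, miR-1892, miR-1896 and miR-1982-5p. The motif CTCC on the probe strand, which stands for GGAG in the miRNA, was sought after the sequences had been seen, so its counts are a description only. It was present in probes of 7 of the 14 members detected on all arrays (50%) and of 7 of the 67 undetected ones (10.4%). Among miRNAs numbered under 400, it was present for 10 of 149 detected on all arrays (6.71%) and 16 of 296 undetected (5.41%), and for 64 of all 1038 outside the range (6.17%).

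Fold changes varied with probe composition as well. Of the tested members, 13 had at least 40% cytosine, with a median log2 fold change of −0.14 and 12 of 13 below 0. The 78 tested miRNAs outside the range with such probes had a median of −0.07 and 52 of 78 below 0, and the 213 with less cytosine had a median of 0.05 and 81 below 0. Across the 307 tested miRNAs, Spearman's rho with the log2 fold change was −0.31 for cytosine content and 0.32 for probe length. miRNAs are not independent replicates, and they share arrays, so these values are descriptions. In the same 78 miRNAs, flagellin replicate 3 was above flagellin replicates 1 and 2 in 69.2%, close to the share in the members. The part of probe composition in the lower values of the members was not tested.

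Each detected member was read by a pair of probes, the longer of which equals the shorter plus 1 base at its 3′ end. Both probes passed the detection limit on all 5 arrays for 13 of the 17 pairs, and the median ratio of the longer to the shorter probe's signal was within 1.5-fold for 9 of the 13. For 2 members the longer probe was far brighter on every array, and these probes are shown with the added base in capitals.

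miR-1934-3p, shorter probe: tcaccagccccac
miR-1934-3p, longer probe: tcaccagccccacC
miR-2137, shorter probe: ctccctggggct
miR-2137, longer probe: ctccctggggctC

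The shorter probe of miR-1934-3p passed the detection limit on no array, so its total gene signal came from the longer probe alone. Set against the limit of the shorter probe, the longer one was at least 4.57, 4.18 and 4.23 times as bright with flagellin and at least 5.04 and 4.59 times in medium. For miR-2137 the ratio was 5.42, 5.45 and 5.39 with flagellin and 5.11 and 5.24 in medium. Both of its probes passed on all 5 arrays, and the ratio was higher on each flagellin array than on either medium array, a difference that was not tested. For miR-1904 the ratio was 0.578, 0.602 and 0.789 with flagellin and 0.749 and 0.634 in medium, so the shorter probe was the brighter on every array. It was the smallest ratio of the 13 pairs on each array except flagellin replicate 3, where that of miR-2861 was 0.717. Among members detected on all arrays, miR-1904 was also the one whose scaled value on flagellin replicate 3 stood highest above the other flagellin arrays. For miR-1897-5p the ratio lay between 0.974 and 1.08, so both of its probes gave like signals on every array.

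**Figure D5:**
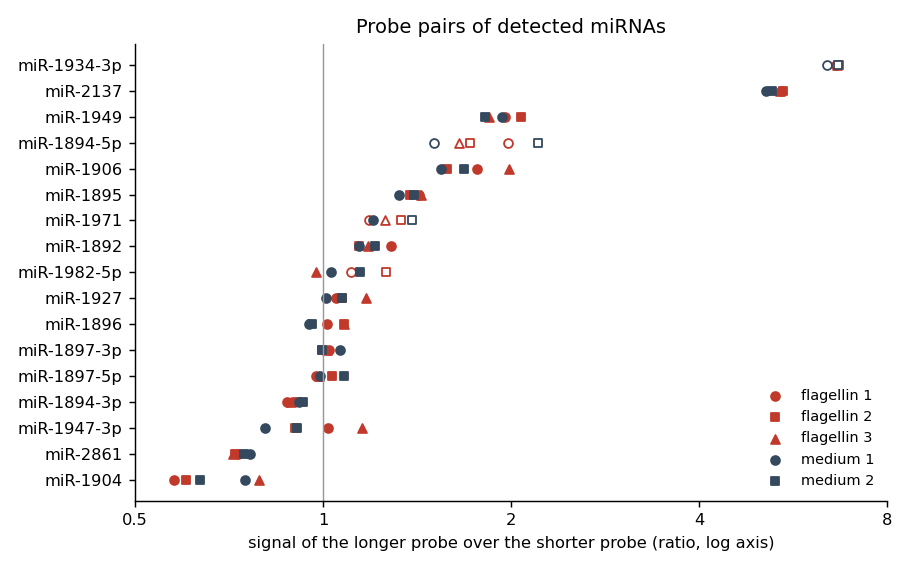
Ratio of the signal of the longer probe to that of the shorter probe (log x axis) for the 17 detected members (y axis), with 1 point per array, flagellin in red and medium in dark blue. Filled points, with both probes above the detection limit, ran from 0.578 for miR-1904 to 5.45 for miR-2137, and open points had at least 1 probe under the limit and are not measured ratios.

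Both arms of 16 hairpins were among the members. At least 1 arm was detected for 5 of them, miR-1894, miR-1897, miR-1934, miR-1947 and miR-1982, and neither for 11. Both arms were detected for miR-1897 on all arrays and for miR-1894 on flagellin replicate 3 only. The 3p arm alone was detected for miR-1934 and miR-1947, and the 5p arm alone for miR-1982. Detected arms of miR-1934 and miR-1982 had the higher probe cytosine content of their pair, 62.9% against 13.8% and 59.9% against 12.1%. For miR-1947 the detected 3p arm had 10.2% and the undetected 5p arm 37.9%. By name, 10 of the 52 members without an arm in their names were detected, 3 of the 16 5p arms and 4 of the 16 3p arms.

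Haematopoietic and myeloid miRNAs were present. All 6 sought were detected on every array. Their summed scaled signal was 143, 142 and 124 with flagellin and 132 and 130 in medium. Most of it came from miR-21-5p, which is not particular to these lineages, so the sum does not describe the rest of the list. Before scaling, miR-155-5p was higher on every flagellin array, with 835, 788 and 621 against 597 and 584 in medium. The unscaled signals of the others in this list overlapped between the groups. After scaling, miR-146a-5p and miR-223-3p were also higher on every flagellin array than on both medium arrays, and miR-142-3p, miR-142-5p and miR-21-5p overlapped. These differences were not tested. Of 5 stromal miRNAs, 3 were undetected throughout, and their summed signal was 5.58, 53.1 and 0 with flagellin and 5.59 and 0 in medium. Flagellin replicate 2 stood apart, with miR-199a-3p at 41.3, and also for the endothelial miR-126-3p (12.6, 29.1 and 5.60 with flagellin, 12.5 and 5.04 with medium). miR-126-5p was undetected. The erythroid miR-451 was at 5.29 and 17.0 on flagellin replicates 1 and 2 and undetected elsewhere, and miR-144-3p was undetected.

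For miR-1897-5p, flagellin replicate 2 was the flagellin array nearest to medium. Without it, the log2 fold change of miR-1897-5p was −0.60. The part of stromal, endothelial or erythroid RNA in the members' values was not tested. Of the other lists, the lymphoid miR-150-5p was undetected and miR-181a-5p detected on all arrays, and the muscle miR-206-3p was detected on all arrays at 14.8 to 19.1 while miR-133a-3p was not. Of the epithelial miRNAs, only miR-200c-3p was detected, on 2 arrays, and the liver miR-122-5p and the neuronal miR-124-3p and miR-9-5p were undetected.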

How the data were processed

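The authors labelled total RNA with Cy3 and extracted the arrays with Agilent Feature Extraction 10.7 (10.7.3.1 in the file headers). The deposited scanner files hold spot, probe and total gene signals as intensities, with 0.1 as the total gene signal of an undetected miRNA. The deposited table holds log2 values, which differed from log2 total gene signals by a single constant on each array for all 84 members (to within 9.58e-06). Total gene signals were scaled by the 75th percentile over 277 mouse miRNAs and floored at 0.0121. limma 3.58.1 under R 4.3.3 compared flagellin with medium over 307 miRNAs, with 3 residual degrees of freedom and Benjamini-Hochberg adjustment. limma's fit was tested on simulated data. Exact permutation tests over arrays were two-sided, over 10 reassignments between groups or 32 sign flips. Tables and figures were made with Python 3.11.15, pandas 2.3.3, numpy 2.4.6 and matplotlib 3.10.9.

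The members, though defined by number alone, and the lists were chosen with earlier results of these data known. The rule for naming took every member detected on at least 2 arrays. Of these, the 12 of highest median signal, those with an unadjusted p under 0.05 and the 3 of largest change in each direction were to be given array by array, which came to all 16. It also took members detected on 1 array, the 3 undetected members nearest to the limit, and hairpins with both arms among the members and at least 1 detected. Members named for a seed shared with other miRNAs, and the neighbouring miR-3960, were chosen after their values were seen. Genes around the members came from RefSeq (GRCm38.p6) without regard to strand. Alternatives covered scaling, floor, filter, probe level values, the deposited values, the test, blocks and each array left out. The probe level values were taken after normexp with an offset of 50, which draws log2 fold changes of weak signals toward 0. Scaling and tests left out control spots and viral miRNAs, because the comparison concerned mouse miRNAs.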

Additional observations from a re-analysis of the deposited data

How the results depend on the processing

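The alternatives gave 343 values, and 298 of them kept the side of their threshold, or stayed within the spread between replicates or within 1.5 times the count reported. Sign changes numbered 32, of which 30 were log2 fold changes of 12 single members, and the other 2 were the summed signal and the median of the members. Of the 270 values of single members, 241 stayed, 21 moved by more than the spread and 8, all of miR-1897-5p, kept their sign but had an unadjusted p above 0.05. In limma's test the count of members past an adjusted p of 0.05 was 0 in every setting run, with unadjusted counts from 0 to 4, and also 0 in the methods' t-test. The share of detected members stayed below that of miRNAs numbered under 400 in every setting. With limits of 2 and 5 errors in place of 3, the arrays detected 18, 18 and 18 or 13, 12 and 12 members with flagellin and 19 and 18 or 13 and 12 with medium.

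Scaled by the 75th percentile of all mouse miRNAs, the log2 ratio of summed signal went from −0.103 to 0.0772, the median log2 fold change of the members from −0.107 to 0.0741, and the unadjusted count from 1 to 0 (18 and 14 of all 307). That percentile moved the median of all miRNAs to 0.19. The unadjusted count was also 0 with no scaling (8 of all 307), with quantile normalization (15 of 307), with no filter (15 of 1122), in the methods' t-test (14 of 307), and, chosen after seeing the data, with a random block for array column (8 of 307). It was 2 with probe values after normexp and quantile normalization (miR-1897-5p and miR-2137, beside 23 of all 307) and 2 with array row as a block (miR-1897-5p and miR-1971, beside 15 of 307). The cause of these changes was not tested.

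With each array left out, the difference in members detected was −1 to 0, with 0 without flagellin replicate 1, the log2 ratio of summed signal −0.216 to −0.0667, and the unadjusted count 0 to 4. Where a medium array is left out, the other one is taken to vary as flagellin arrays do.

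Replicate numbers are shared between the groups. Once group means were removed, samples of the same number correlated at 0.047 and 0.007 over 307 miRNAs. The medium arrays then mirror each other around their mean, so these values are not independent. They cannot decide whether samples of the same number shared a culture or batch. With replicate number as a block, on 1 residual degree of freedom, 3 members had an unadjusted p under 0.05 (miR-1897-5p, miR-1904 and miR-1982-5p), beside 39 of all 307, with 0 adjusted. The median of the members was then −0.196. Flagellin replicate 3 is alone in its block and has no weight in this contrast. Relative to the median of all miRNAs the members stood at −0.18, as in the fit without that array.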
